A study of Rattus norvegicus with 29 samples.

Results

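The genes described here are 32 genes of the red cell lineage and of haem synthesis, measured in blood mononuclear cells of rats. A probe was taken as a member's where its name on the array, ignoring case and the suffixes for predicted or mapped genes, was the member's symbol or an older synonym, such as Eraf for Ahsp or Epb4.1 for Epb41, and where the scanner software marked its Cy5 signal as clearly over background on 4 or more of the 29 arrays. Probes were found for 31 of the 32 genes, 22 by symbol, 7 by synonym and 2, Hba-a2 and Sptb, by the accession the array lists. The probes of Epb41, Kel, Slc25a37 and Slc25a38 carried locus names, which were counted as synonyms. Trim10 was not analysed here. All 39 probes of these 31 genes passed the signal filter, of 28242 probes that passed on the whole array, and each gene is given by its brightest probe, as 1 of 24275 genes tested.

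The rats were male Wistar, 6 months old, and had eaten their diet for 4 months. Cafeteria rats received an energy-dense, fatty cafeteria diet beside chow, and control rats received chow alone. Within each diet rats were fed freely, fasted for 14 h, or fasted for 14 h and then refed for 6 h. This gave cafeteria fed, cafeteria fasted, cafeteria refed, control fasted and control refed groups of 5 rats each and a control fed group of 4. Mononuclear cells were separated from saphenous vein blood on a Ficoll gradient, which keeps lymphocytes and monocytes and removes most, but not all, red cells, granulocytes and platelets. Each rat's RNA, in Cy5, was hybridised on its own 2-colour array beside a Cy3 pool made from all groups. Values are log2 ratios of the rat over that pool, so 0 is the level of the pool.

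Red cells form in the bone marrow. There Gata1, Tal1 and Klf1 switch on the globin genes, the enzymes of haem synthesis and the proteins of the red cell membrane. Gfi1b is a further transcription factor of this lineage. Young red cells, the reticulocytes, still carry this RNA when they reach the blood. Haem is made from glycine and succinyl-CoA in a chain of enzymatic steps, of which the initial one is catalysed by Alas2 in erythroid cells and by Alas1 in all other cells. Gata1, Tal1 and Gfi1b also act in megakaryocytes, the cells that shed platelets.

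Sequence upstream of the annotated start, from RefSeq on the GRCr8 build, was at hand for 25 of the 31 genes. These stretches of 250 bases are shown for 4 genes whose levels followed each other closely across rats (Hbb, Hba-a2, Alas2 and Rhd), for 1 that followed platelet markers (Rhag) and for Alas1, whose level differed with the feeding state. They lie at chr1:167663722-167663971 on the minus strand for Hbb, at chr10:15829139-15829388 on the minus strand for Hba-a2, at chrX:22895200-22895449 on the plus strand for Alas2, at chr5:152370950-152371199 on the plus strand for Rhd, at chr9:27594391-27594640 on the minus strand for Rhag and at chr8:115768643-115768892 on the minus strand for Alas1. Each is written 5′ to 3′ on the gene's own strand and ends at the base before the start. Capitals mark the words searched for on both strands, which were 4 words of GATA factors and 1 of KLF factors. The GATA words were AGATAA (as in Alas2), TGATAA (as in Hba-a2), TGATAG (as in Rhd, on the other strand) and AGATAG (as in Epb42), and the KLF word was CCNCNCCC, where N is any base.
Hbb: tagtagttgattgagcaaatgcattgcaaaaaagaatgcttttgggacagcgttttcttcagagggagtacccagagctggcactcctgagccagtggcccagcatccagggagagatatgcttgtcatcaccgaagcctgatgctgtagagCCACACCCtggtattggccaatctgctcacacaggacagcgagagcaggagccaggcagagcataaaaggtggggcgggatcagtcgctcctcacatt
Hba-a2: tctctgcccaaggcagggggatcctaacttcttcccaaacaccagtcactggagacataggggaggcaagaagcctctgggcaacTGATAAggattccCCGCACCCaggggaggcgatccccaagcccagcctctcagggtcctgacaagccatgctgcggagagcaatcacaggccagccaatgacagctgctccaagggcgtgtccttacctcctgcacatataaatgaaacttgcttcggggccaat
Alas2: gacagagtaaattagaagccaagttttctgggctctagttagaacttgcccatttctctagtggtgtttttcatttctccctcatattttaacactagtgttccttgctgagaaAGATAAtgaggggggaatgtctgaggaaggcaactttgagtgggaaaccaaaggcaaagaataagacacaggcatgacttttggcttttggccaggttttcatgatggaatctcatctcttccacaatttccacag
Rhd: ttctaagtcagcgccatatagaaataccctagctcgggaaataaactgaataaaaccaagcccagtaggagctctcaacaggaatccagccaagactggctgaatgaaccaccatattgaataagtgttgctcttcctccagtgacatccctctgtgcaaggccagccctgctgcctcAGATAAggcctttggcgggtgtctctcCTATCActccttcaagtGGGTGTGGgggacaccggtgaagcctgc
Rhag: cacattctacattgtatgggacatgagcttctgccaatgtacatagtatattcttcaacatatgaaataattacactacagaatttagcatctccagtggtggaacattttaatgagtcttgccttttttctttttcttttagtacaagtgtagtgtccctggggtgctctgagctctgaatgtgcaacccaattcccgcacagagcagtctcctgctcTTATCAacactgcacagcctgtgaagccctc
Alas1: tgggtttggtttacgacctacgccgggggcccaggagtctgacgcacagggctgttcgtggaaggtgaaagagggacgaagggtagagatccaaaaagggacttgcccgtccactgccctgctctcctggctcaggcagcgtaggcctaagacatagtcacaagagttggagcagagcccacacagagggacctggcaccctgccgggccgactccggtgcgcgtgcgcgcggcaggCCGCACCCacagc

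The first base of the GATA word lay 136 bases before the start in Alas2 (position -136) and at -165 in Hba-a2. Rhd held GATA words at -72 and -45, and Rhag held 1 at -31, where it also completes the composite E-box and GATA word, the last letters of an E-box at a fixed distance before a GATA word, as Tal1 and Gata1 bind together. Hbb held a KLF word at -98, Hba-a2 at -152, Rhd at -28 (on the other strand) and Alas1 at -13. No GATA word was found upstream in Hbb or Alas1. Over windows of 300 bases, from 250 before to 50 after the start, a GATA word was found in 12 of 25 members (48%) and in 29.93% of 27457 promoters. A KLF word was found in 19 of 25 members (76%) and in 47.23% of promoters, and the composite word in 4 of 25 (16%; Gfi1b, Ermap, Sptb and Rhag) and in 2.196% of promoters. The composite word holds a GATA core by construction, so the 2 searches overlap. A match is a description of the letters and not a bound site.

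On rn4, as the scanner files list them, the probes lie at chr1:187561567-187561626 for Ahsp, chr5:150793821-150793880 for Epb41, chr5:135443049-135443108 for Tal1, chrX:26570758-26571261 for Gata1, chr8:21064044-21064190 for Epor and chr9:16209538-16209597 for Rhag. Signal was strong enough to follow most of these genes in every rat. Of the 10 genes listed as erythroid markers, all were measured and 9 were well above background on all 29 arrays, so red cell RNA was present in every sample. The defining markers of the expected cells were well above background on all arrays for 10 of 10 monocyte, 10 of 10 T cell, 6 of 6 B cell and 7 of 7 NK cell genes on the array. The same held for 13 of 15 platelet genes and for 5 of 12 neutrophil genes. The median Cy5 signal per array lay between 103.2 and 154.3 fluorescence units on 8 slides, and the number of arrays limits the precision. The scanner files fall into 2 runs of the extraction software. Median Cy5 signal was 138.3 ± 7.10 in run 1 (SD, n = 14) and 114.2 ± 7.69 in run 2 (SD, n = 15). Each group has rats in both runs, but unevenly. Runs 1 and 2 held 4 and 1 control fasted, 4 and 1 cafeteria fed, 1 and 4 cafeteria fasted and 1 and 4 cafeteria refed rats. They held 2 and 2 control fed and 2 and 3 control refed rats. Run is thus partly mixed into comparisons of these groups, and within a run some groups have 1 rat. Among the members Ermap was well above background on 23 arrays and Ank1 on 9, so the values of Ank1 are mostly near background. Hba-a2 was saturated on 3 cafeteria refed arrays and 1 control fasted array, and its probe lists the accessions of all 3 alpha-globin genes, which cannot be told apart. In bulk samples of this kind, a difference in the number of cells of a type and a difference in RNA per cell cannot be told apart.

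The globins and their chaperone varied more between rats of one group than nearly all other genes. Ahsp, the chaperone that binds free alpha-globin, was 0.12, 0.13, -0.64, -0.27 and 0.01 in the 5 cafeteria fed rats. Among cafeteria rats it was -0.03, 0.53, -0.51, -0.05 and -0.05 after fasting, and -0.36, 0.78, 1.68, 0.39 and 1.24 after refeeding. It was -0.78, -1.07, -1.72 and -1.03 in control fed rats, -1.07, 0.66, -1.55, 0.27 and -0.76 in control fasted rats and -1.81, -1.56, -0.91, 0.25 and 0.43 in control refed rats. All 4 control fed rats thus lay below all 5 cafeteria fed rats, whereas the fasted and the refed rats of the diets overlapped. Its lowest and highest rats were 11.2-fold apart. The within-group SD of Ahsp was 0.71, at the 99.5th percentile of all genes, whose median SD was 0.13. Hba-a2, an alpha-globin, averaged 0.48 ± 0.22, 0.53 ± 0.55 and 1.36 ± 0.93 in cafeteria fed, fasted and refed rats, and -0.48 ± 0.59, 0.21 ± 1.27 and 0.09 ± 1.25 in control fed, fasted and refed rats (SD, n = 5, control fed n = 4). Hbb, a beta-globin, averaged -0.65 ± 0.39, -0.42 ± 0.61 and -0.02 ± 0.81 in cafeteria fed, fasted and refed rats, and -1.17 ± 0.31, -0.74 ± 1.06 and -1.07 ± 1.19 in control fed, fasted and refed rats. Since Hba-a2 was saturated on 3 of the 5 cafeteria refed arrays and on 1 control fasted array, its highest values, and with them the mean and the spread of these groups, may be understated. For Hbb, which was saturated on no array, the SD was largest in refed and fasted control rats.

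**Figure D1:**
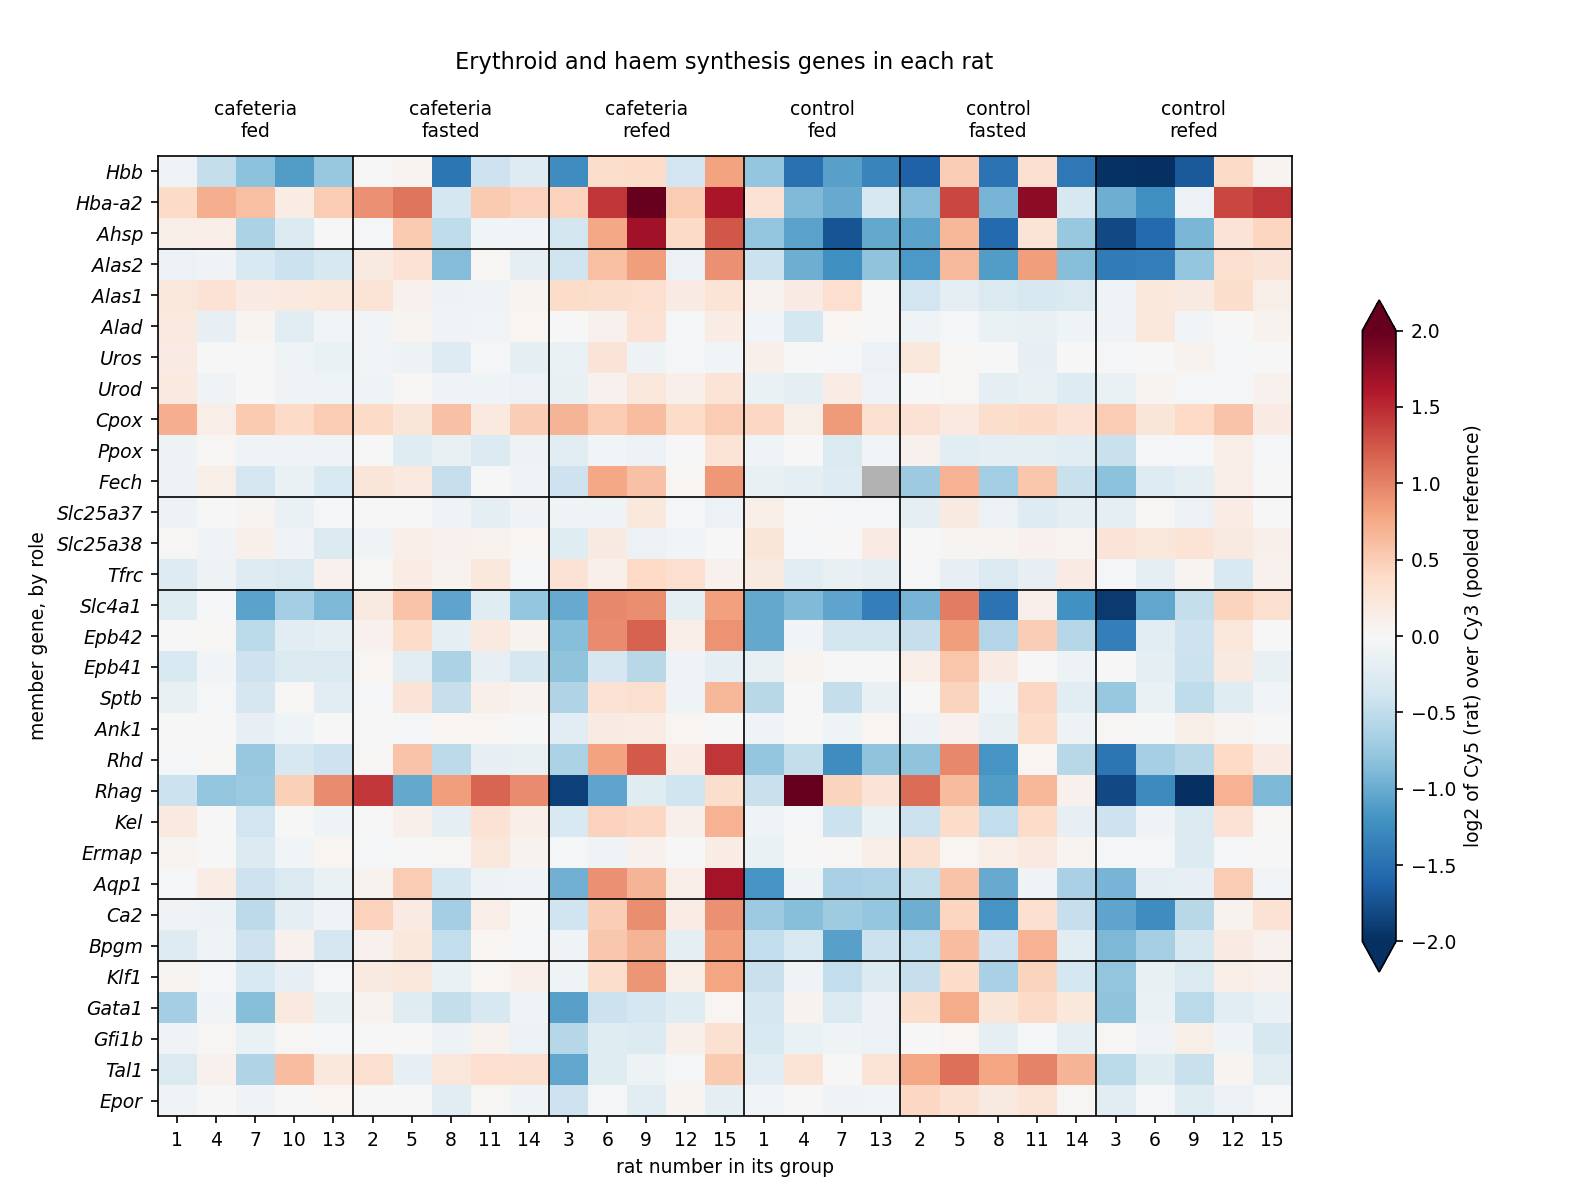
Log2 ratio of each of the 31 genes (rows) in each of the 29 rats (columns, by group, with the cafeteria groups left of the control groups), where colour is the ratio to the reference pool. Ahsp runs between -1.81 in control refed rat 3 and 1.68 in cafeteria refed rat 9, and the genes that follow it share its high and low rats.

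A block of the member genes rose and fell with Ahsp across the 29 rats. Of the 30 other members, 12 had a Pearson correlation above 0.8 with it. These were the carbonic anhydrase Ca2 (r = 0.95, Spearman's rho = 0.94), the Rh blood group protein Rhd (r = 0.94, rho = 0.96), Alas2 (r = 0.94, rho = 0.95), Hba-a2 (r = 0.94, rho = 0.93), the erythroid factor Klf1 (r = 0.92, rho = 0.91), Hbb (r = 0.89, rho = 0.91), Bpgm (r = 0.89, rho = 0.88), Slc4a1 (r = 0.89, rho = 0.89), Kel (r = 0.85, rho = 0.85), Epb42 (r = 0.84, rho = 0.86), Fech (r = 0.83, rho = 0.86, n = 28) and Aqp1 (r = 0.80, rho = 0.87). Each of these had a permutation p of 1e-05, the smallest that 100000 permutations can give, and an adjusted p of 4.07e-05 over 61 relations computed. Without the 2 rats farthest from the median of Ahsp, r of these 12 genes lay between 0.77 for Epb42 and 0.94 for Ca2. After removal of the group means r lay between 0.73 for Aqp1 and 0.93 for Rhd, in run 1 between 0.74 for Aqp1 and 0.98 for Ca2, and in run 2 between 0.82 for Aqp1 and 0.96 for Rhd. The points share the reference pool and the array normalisation.

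Not every member belonged to this block. Sptb, the beta-spectrin, followed Ahsp more loosely (r = 0.70, rho = 0.64, adjusted p = 7.62e-05), as did Urod (r = 0.50, rho = 0.47, adjusted p = 0.0149) and the dim Ank1 (r = 0.43, rho = 0.44, adjusted p = 0.0485). Alas1 (r = 0.31, rho = 0.30, adjusted p = 0.197), Gata1 (r = 0.12, rho = 0.07, adjusted p = 0.745), Tal1 (r = 0.10, rho = 0.08, adjusted p = 0.752) and Epor (r = -0.05, rho = 0.03, adjusted p = 0.85) did not pass the test. The factors of the erythroid programme were thus divided, with Klf1 alone in the block of 12 and Gata1, Tal1 and Gfi1b (r = 0.09, rho = 0.11, adjusted p = 0.752) outside it. After removal of the group means r with Ahsp was 0.52 for Gata1 and 0.44 for Tal1.

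**Figure D2:**
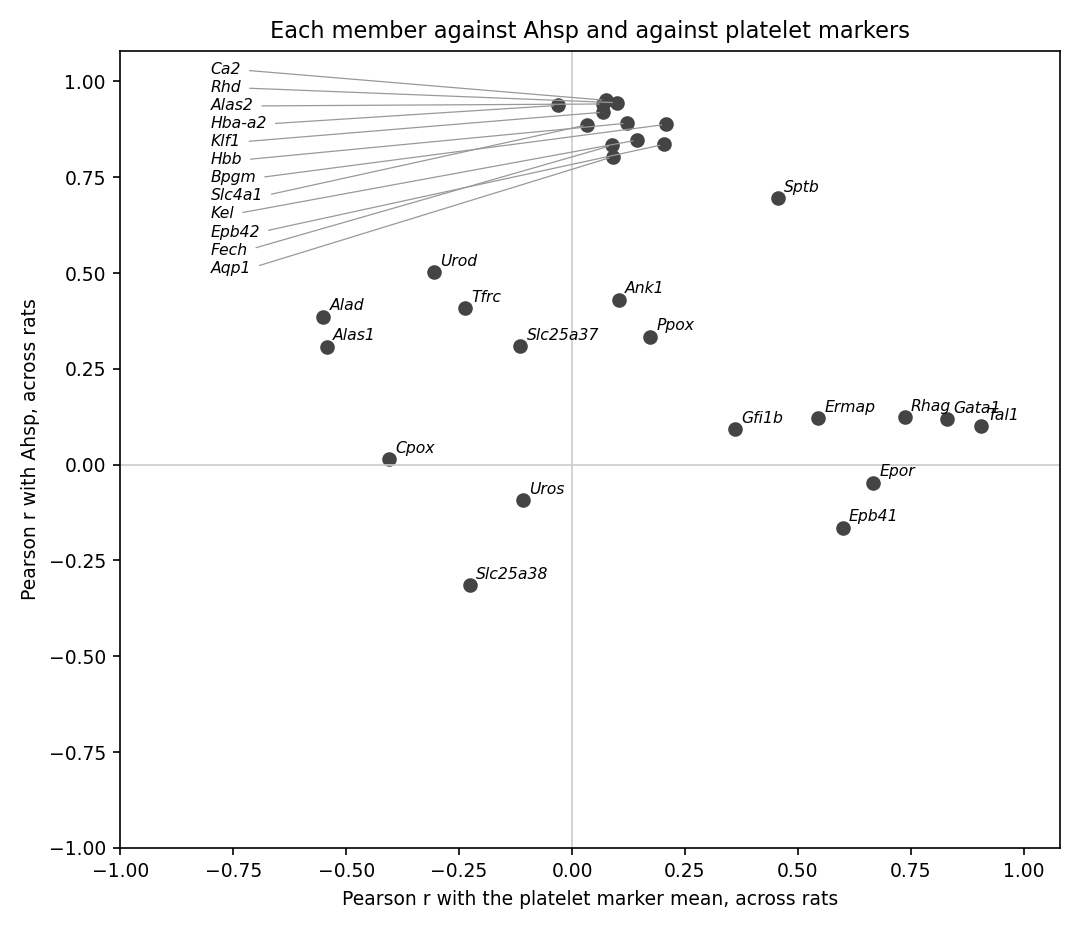
Pearson correlation of each gene with Ahsp (y axis) against its correlation with the mean of 13 platelet markers (x axis) over 29 rats, 1 point per gene. The 12 genes with r above 0.8 for Ahsp have platelet correlations between -0.03 and 0.21, and Tal1 and Gata1 have platelet correlations of 0.91 and 0.83. Group means were not removed for this plot.

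Cafeteria rats carried more Ahsp RNA than control rats, more Alas1 and less Epb41, the cytoskeletal protein 4.1R, which ties spectrin and actin to the membrane in red cells and is also made in other cells. Epb41 was -0.31, -0.06, -0.41, -0.30 and -0.28 in cafeteria fed rats, against -0.15, 0.06, -0.02 and 0.01 in control fed rats. It was 0.04, -0.23, -0.63, -0.16 and -0.33 in cafeteria fasted rats, against 0.13, 0.56, 0.16, -0.01 and -0.10 in control fasted rats. It was -0.80, -0.34, -0.56, -0.09 and -0.18 in cafeteria refed rats, against 0.00, -0.18, -0.44, 0.17 and -0.15 in control refed rats. The diets overlapped in each feeding state, with the cafeteria rats mostly lower. Averaged over the feeding states, Ahsp rose by 0.99 ± 0.25 (SE) on the log2 scale (limma with Benjamini-Hochberg adjustment, adjusted p = 0.0217). Its mean was 0.20 ± 0.64 in cafeteria rats and -0.76 ± 0.84 in control rats (SD, n = 15 and 14). Alas1 rose by 0.19 ± 0.04 (adjusted p = 0.0117), and Epb41 fell by 0.31 on that scale with an SE of 0.08 (adjusted p = 0.0221). These were 3 of 31 members, against 3.24% of all genes. The median change of the members was 0.14, against 0.01 over all genes, and 23 of 31 were above 0, although the members that follow Ahsp are not independent of each other.

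The other genes of the Ahsp block lay in the same direction without passing the test. Ca2 changed by 0.62 (adjusted p = 0.055), Klf1 by 0.35 (adjusted p = 0.114), Rhd by 0.60 (adjusted p = 0.161), Hba-a2, with its saturated arrays, by 0.85 (adjusted p = 0.169), Alas2 by 0.59 (adjusted p = 0.177) and Hbb by 0.63 (adjusted p = 0.285). Alas2 averaged -0.25 ± 0.15, -0.11 ± 0.46 and 0.37 ± 0.59 in cafeteria fed, fasted and refed rats, and -0.86 ± 0.34, -0.32 ± 0.99 and -0.60 ± 0.84 in control fed, fasted and refed rats. Ca2 was -0.08, -0.10, -0.52, -0.19 and -0.09 in cafeteria fed rats and -0.73, -0.85, -0.71 and -0.77 in control fed rats. These 2 groups did not overlap for Ca2.

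Each feeding state alone gave less certainty. Between cafeteria refed and control refed rats Ahsp differed by 1.47 ± 0.42 (SE), with an adjusted p of 0.166, Slc25a38, which carries glycine into mitochondria for haem synthesis, by -0.25 (adjusted p = 0.147) and Tfrc, the transferrin receptor, by 0.32 (adjusted p = 0.182). No member passed limma's test there, against 0.222% of all genes, with 14 of 31 at an unadjusted p under 0.05 and a median change of 0.32, against 0.01 over all genes. Between cafeteria fed and control fed rats no member passed, against 0.00412% of all genes, with 2 members at an unadjusted p under 0.05. The smallest p-values there belonged to Ahsp (1.02), Slc25a38 (-0.16) and Ca2 (0.57). Between cafeteria fasted and control fasted rats 1 of 31 members, Alas1, passed (0.34 ± 0.07 SE, adjusted p = 0.0258), against 0.824% of all genes, with 5 members at an unadjusted p under 0.05. That call was lost without control fasted rat 2 or 8 or cafeteria fasted rat 5 or 14 (adjusted p up to 0.0676). The call of Alas1 was lost as well with the run of the extraction software in the model. Run 1 held 4 control fasted rats but 1 cafeteria fasted rat. Of 13 platelet genes 1 fell between these groups, with a median change of -0.64.

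With slide as a block the diet difference averaged over feeding states was 0.97 for Ahsp (adjusted p = 0.0207), -0.32 for Epb41 (adjusted p = 0.0155) and 0.19 for Alas1 (adjusted p = 0.0113). Plain differences between the cafeteria and control rats of a slide, which mix feeding states, lay between 0.13 and 1.74 for Ahsp and between -0.64 and -0.17 for Epb41 over the 8 slides. Within run 1 Ahsp differed by 1.00 (adjusted p = 0.332) and within run 2 by 1.07 (adjusted p = 0.53), with fewer rats in each, and Epb41 by -0.47 (adjusted p = 0.12) and -0.14 (adjusted p = 1). Alas1 was higher in the cafeteria rats on 5 of 8 slides, again with feeding states mixed, and within runs 1 and 2 it differed by 0.29 (adjusted p = 0.144) and 0.15 (adjusted p = 0.959). Over the 13 alternatives the Ahsp difference lay between 0.92 and 1.18 and its adjusted p between 0.00429 and 0.53. Of the platelet markers 0 of 13 passed by diet, with a median change of -0.17. With their mean as a covariate the Ahsp difference was 1.13 (adjusted p = 0.00429), and Ca2 (0.73), Klf1 (0.42), Rhd (0.75), Aqp1 (0.65) and Slc25a38 (-0.15) then passed the test as well.

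**Figure D3:**
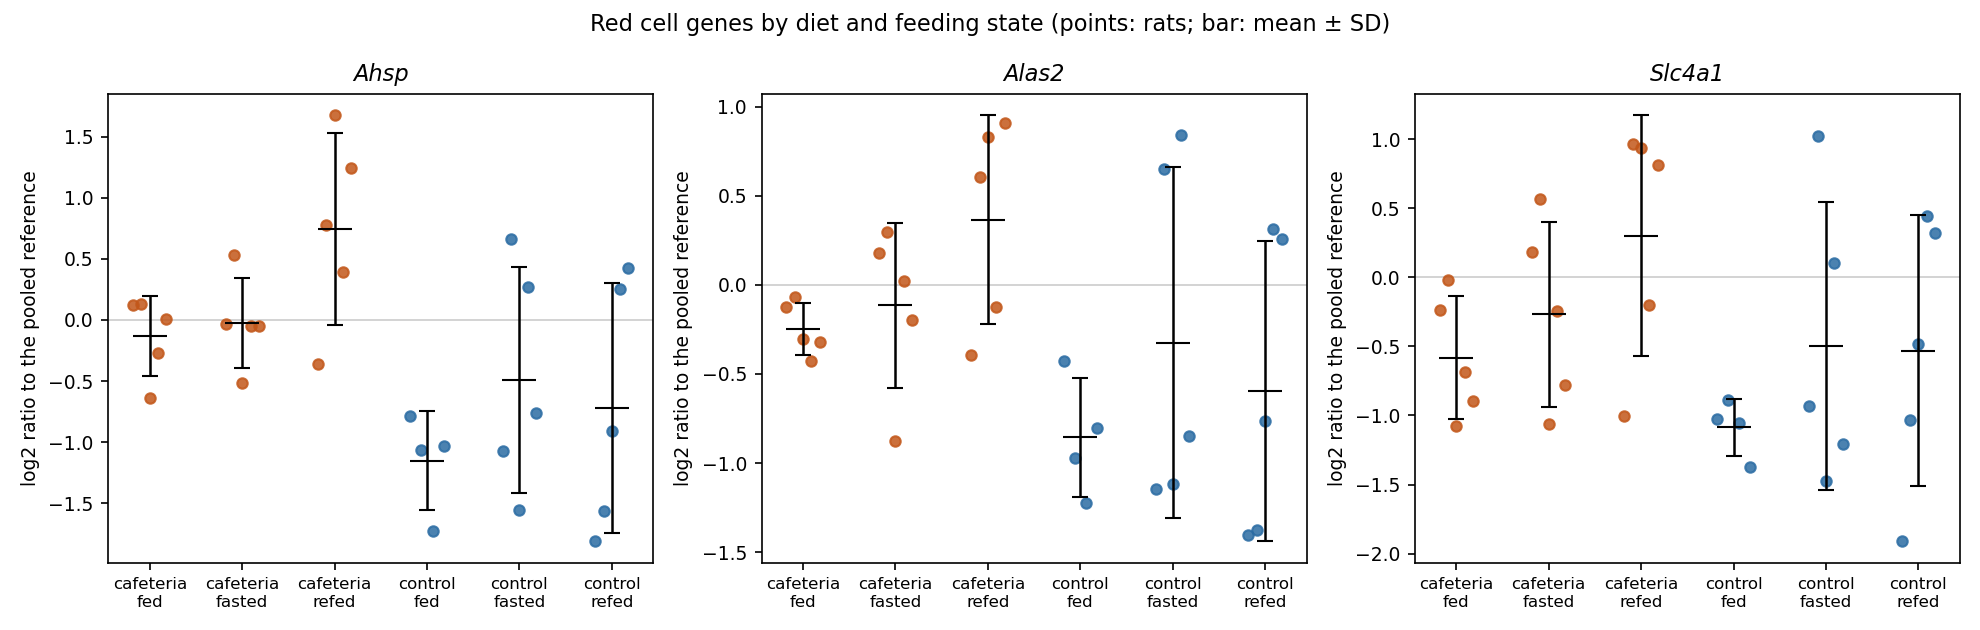
Log2 ratio of Ahsp, Alas2 and Slc4a1 in each rat by group, cafeteria groups left of control groups, with points for rats and bars for the group mean and SD. Control fed rats lie at or below -0.78 for Ahsp, and all 3 genes spread most in the fasted and refed control rats and the refed cafeteria rats.

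Of the enzymes of haem synthesis, Alas1, the isoform found outside red cells, was the only one called between feeding states. Alas1 was 0.23, 0.30, 0.17, 0.20 and 0.21 in cafeteria fed rats, and, on the same diet, 0.27, 0.08, -0.10, -0.07 and 0.05 after fasting and 0.37, 0.36, 0.33, 0.16 and 0.27 after refeeding. It was 0.07, 0.16, 0.33 and 0.01 in control fed rats, -0.38, -0.19, -0.29, -0.32 and -0.29 in control fasted rats and -0.09, 0.21, 0.17, 0.36 and 0.12 in control refed rats. Every control fasted rat lay below every rat of the other 5 groups. In control rats Alas1 fell on fasting by 0.44, with an SE of 0.08 (adjusted p = 0.0165), and it rose on refeeding after the fast by 0.45 ± 0.07 (SE, adjusted p = 0.000869). Averaged over diets it fell by 0.31 on fasting, with an SE of 0.05 (adjusted p = 0.00141), and rose by 0.35 ± 0.05 on refeeding (SE, adjusted p = 0.000149). In cafeteria rats the change was -0.18 on fasting (adjusted p = 0.352) and 0.25 on refeeding (adjusted p = 0.0818). The interaction test of whether the diets differed in the change on fasting did not pass (0.26, adjusted p = 1). Of 13 platelet genes, 0 passed on fasting in control rats, with a median change of 0.52. With their mean in the model the change of Alas1 in control rats was -0.43 on fasting (adjusted p = 0.0506) and 0.43 on refeeding (adjusted p = 0.085).

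Alas1 was the only member called on fasting, 1 of 31 against 0.177% of all genes in control rats and 1 of 31 against 4.09% averaged over diets. At an unadjusted p under 0.05 there were 6 members in each of the 2 comparisons. With slide as a block the change averaged over diets was -0.31 on fasting (adjusted p = 0.00117) and 0.35 on refeeding (adjusted p = 0.000128). Plain differences between the rats of a slide had that sign on each of 7 slides for fasting and on each of 7 for refeeding, but most slides did not hold both diets in both feeding states, so diet is mixed into them. Within runs 1 and 2 the change averaged over diets was -0.23 and -0.40 on fasting, and 0.32 and 0.38 on refeeding. These values rest on 1 cafeteria fasted rat in run 1 and 1 control fasted rat in run 2. With arrays centred on their median and no loess, the size on fasting stayed at -0.31 but the adjusted p was 0.718. Over 12 alternatives this adjusted p lay between 0.00109 and 0.718. In control rats alone, the fall on fasting was not called without control fed rat 4 or 7 or control fasted rat 2, with an adjusted p up to 0.0846.

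**Figure D4:**
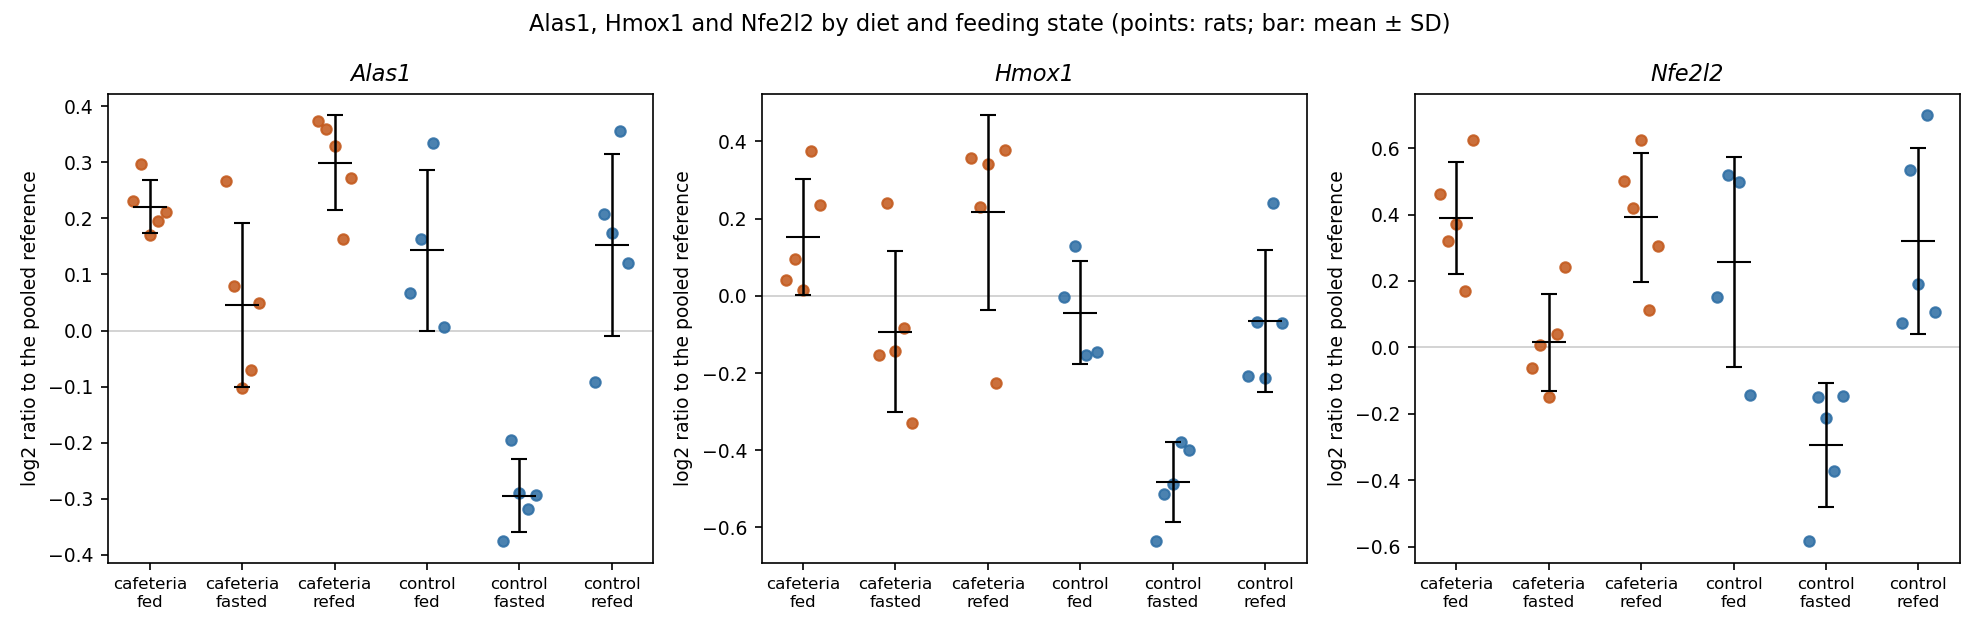
Log2 ratio of Alas1, of the haem-degrading enzyme Hmox1 and of the factor Nfe2l2 in each rat by group, cafeteria groups left of control groups, with points for rats and bars for the group mean and SD. The 5 control fasted rats are the lowest of all for Alas1, between -0.38 and -0.19.

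The enzyme that breaks haem down was called in some of the same comparisons. Hmox1, haem oxygenase 1, fell on fasting averaged over diets by 0.34 (adjusted p = 0.0137), rose on refeeding by 0.36 ± 0.08 (SE, adjusted p = 0.00237) and was higher in cafeteria than in control rats by 0.29 ± 0.07 (SE, adjusted p = 0.00948). It was -0.64, -0.51, -0.49, -0.38 and -0.40 in control fasted rats, against -0.00, 0.13, -0.15 and -0.15 in control fed rats. These groups did not overlap, but the change of -0.44 did not pass the test (adjusted p = 0.103), nor did the difference of 0.39 between cafeteria fasted and control fasted rats (adjusted p = 0.0899). Nfe2l2, the stress-response factor known to drive Hmox1, fell on fasting by 0.46 (adjusted p = 0.00572) and rose on refeeding by 0.49 ± 0.09 (SE, adjusted p = 0.000969), averaged over diets. With the mean of the platelet markers in the model the refeeding change averaged over diets was 0.34 for Alas1 (adjusted p = 0.0105), 0.42 for Hmox1 (adjusted p = 0.031) and 0.49 for Nfe2l2 (adjusted p = 0.036).

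The remaining enzymes of the pathway were called in none of the comparisons. Alad, the second enzyme, had group means between -0.10 and 0.10, Uros between -0.13 and 0.02, Urod between -0.12 and 0.11, Cpox between 0.30 and 0.54 and Ppox between -0.16 and -0.03. The number of comparisons was 15. Fech, which inserts the iron, and Alas2 belonged to the Ahsp block, with group means of Fech between -0.23 and 0.37. The mitochondrial iron importer Slc25a37 had group means between -0.12 and 0.01 and Slc25a38 between -0.06 and 0.21. Tfrc, which brings in iron, averaged -0.16 ± 0.16, 0.09 ± 0.09 and 0.24 ± 0.14 in cafeteria fed, fasted and refed rats, and -0.09 ± 0.19, -0.10 ± 0.17 and -0.08 ± 0.17 in control fed, fasted and refed rats. It differed among the 6 groups (F test, adjusted p = 0.0289) but passed in no pairwise comparison. A second Tfrc probe, which correlated with it at 0.87, had an adjusted p of 0.0524 in that test, and another, dim probe correlated at 0.11. Without cafeteria refed rat 3, 9 or 12 the F test was not passed, with an adjusted p up to 0.0863.

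Of the erythroid factors, Tal1 and Gata1 changed when fasted control rats were refed, as did the erythropoietin receptor, whereas Klf1 and Gfi1b did not pass the test. Tal1 fell by 1.14 (SE 0.21, adjusted p = 0.0016), Gata1 fell by 0.75 (SE 0.19, adjusted p = 0.0109), Epor, through which erythropoietin keeps red cell precursors alive, fell by 0.37 (SE 0.07, adjusted p = 0.00232) and Ermap, a membrane protein of erythroid cells, fell by 0.22 (SE 0.07, adjusted p = 0.0447). With Alas1 these were 5 of 31 members (16.1%), against 9.31% of all genes. Ermap was well above background on 5 of 5 control fasted arrays but on only 2 of 5 control refed arrays. Its values in refed rats are thus partly near background, and its call stood in 3 of 10 alternatives. Tal1 was -0.55, -0.24, -0.45, 0.06 and -0.21 in control refed rats, against 0.77, 1.1, 0.79, 0.99 and 0.68 in control fasted rats. Gata1 was -0.81, -0.14, -0.53, -0.21 and -0.13 in control refed rats, against 0.36, 0.74, 0.24, 0.38 and 0.21 in control fasted rats. Epor was -0.21, -0.04, -0.24, -0.12 and -0.04 in control refed rats, against 0.41, 0.30, 0.18, 0.27 and 0.02 in control fasted rats. The 2 groups did not overlap for any of these genes, and the control fasted rats stood above every other rat for Tal1.

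Averaged over diets, refeeding called Tal1 (-0.77, SE 0.15, adjusted p = 0.00111), Epor (-0.24, SE 0.05, adjusted p = 0.00263), Gata1 (-0.47, SE 0.13, adjusted p = 0.0165), Rhag (-1.32, SE 0.39, adjusted p = 0.0238) and Alas1. This was again 5 of 31, against 13.5% of all genes, so the share of members called was close to that of all genes. Rhag, the ammonia-conducting partner of the Rh proteins, was -1.87, -1.05, -0.24, -0.41 and 0.34 in cafeteria refed rats, against 1.41, -1.02, 0.83, 1.17 and 0.95 in cafeteria fasted rats. It was -1.81, -1.27, -1.98, 0.70 and -0.90 in control refed rats, against 1.12, 0.63, -1.12, 0.66 and 0.08 in control fasted rats. The refed and fasted rats overlapped on both diets, through cafeteria fasted rat 5 and, on chow, control fasted rat 8 and control refed rat 12. Fed rats averaged -0.11 ± 0.78 on the cafeteria diet and 0.60 ± 1.11 on chow (SD, n = 5 and 4). Its rats ran between -1.98 and 2.16, a 17.7-fold range and the widest of the 31 genes. In cafeteria rats alone no member passed on refeeding, against 1.4% of all genes, with 3 at an unadjusted p under 0.05. The smallest p-values there were those of Alas1, of Urod (0.18, adjusted p = 0.293) and of Rhag (-1.31, adjusted p = 0.293).

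Markers of platelets moved in the same comparison. Of 13 platelet genes, 12 fell by the same test in control refed against control fasted rats, with a median change of -1.54, and 12 fell averaged over diets, with a median of -0.997. Their mean lay between -1.25 and -0.18 in control refed rats and between 0.46 and 0.75 in control fasted rats. Across the 29 rats it correlated with Tal1 at r = 0.91 (rho = 0.93, 0.85 after removal of group means). Its r was 0.83 with Gata1 (rho = 0.85, 0.75 after removal) and 0.74 with Rhag (rho = 0.69, 0.71 after removal). With Ahsp r was 0.05 (rho = 0.02), but 0.39 after removal. For the 12 genes of the Ahsp block r with the platelet marker mean after removal lay between 0.20 for Hba-a2 and 0.52 for Aqp1. The adjusted permutation p was 4.07e-05 for each of Tal1, Gata1 and Rhag and 0.846 for Ahsp. Epor (r = 0.67, rho = 0.67, adjusted p = 0.000359), Epb41 (r = 0.60, rho = 0.57, adjusted p = 0.00173) and Ermap (r = 0.54, rho = 0.57, adjusted p = 0.00644) also followed it, with 0.34, 0.52 and 0.33 after removal of group means. Without the 2 rats farthest from its median, r was 0.90 for Tal1, 0.86 for Gata1 and 0.68 for Rhag. In runs 1 and 2 it was 0.94 and 0.87 for Tal1, 0.87 and 0.79 for Gata1, and 0.77 and 0.76 for Rhag. Sptb followed the platelet marker mean more loosely (r = 0.46, rho = 0.46, adjusted p = 0.0362, 0.50 after removal). Alas1 ran the other way (r = -0.54, rho = -0.50, adjusted p = 0.00671), but the relation was -0.04 after removal of group means. Alad ran the other way as well (r = -0.55, rho = -0.61, adjusted p = 0.006), with -0.39 after removal.

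With the mean of the platelet markers in the model none of the 5 members called in control refed against control fasted rats stayed past the threshold, and 4 of all genes were called, against 2259 without it. The change from refeeding in control rats was then -0.26 for Tal1 (adjusted p = 0.465), -0.05 for Gata1 (adjusted p = 0.924), -0.25 for Epor (adjusted p = 0.237), -0.12 for Ermap (adjusted p = 0.616) and 0.43 for Alas1 (adjusted p = 0.085). Over the 12 alternatives the adjusted p ran between 0.00034 and 0.465 for Tal1, between 0.0023 and 0.924 for Gata1 and between 0.00171 and 0.674 for Epor. Averaged over diets, the change of Rhag with the covariate was 0.01 (adjusted p = 0.994, with 0.00698 to 0.994 over the alternatives). The platelet marker mean lay between -1.25 and -0.18 in control refed rats and between 0.46 and 0.75 in control fasted rats, without overlap. Refeeding and this covariate can thus hardly be told apart between these groups. The SE of the Alas1 change was 0.10 with the covariate and 0.07 without it. The part of platelets in these changes was not tested further.

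**Figure D5:**
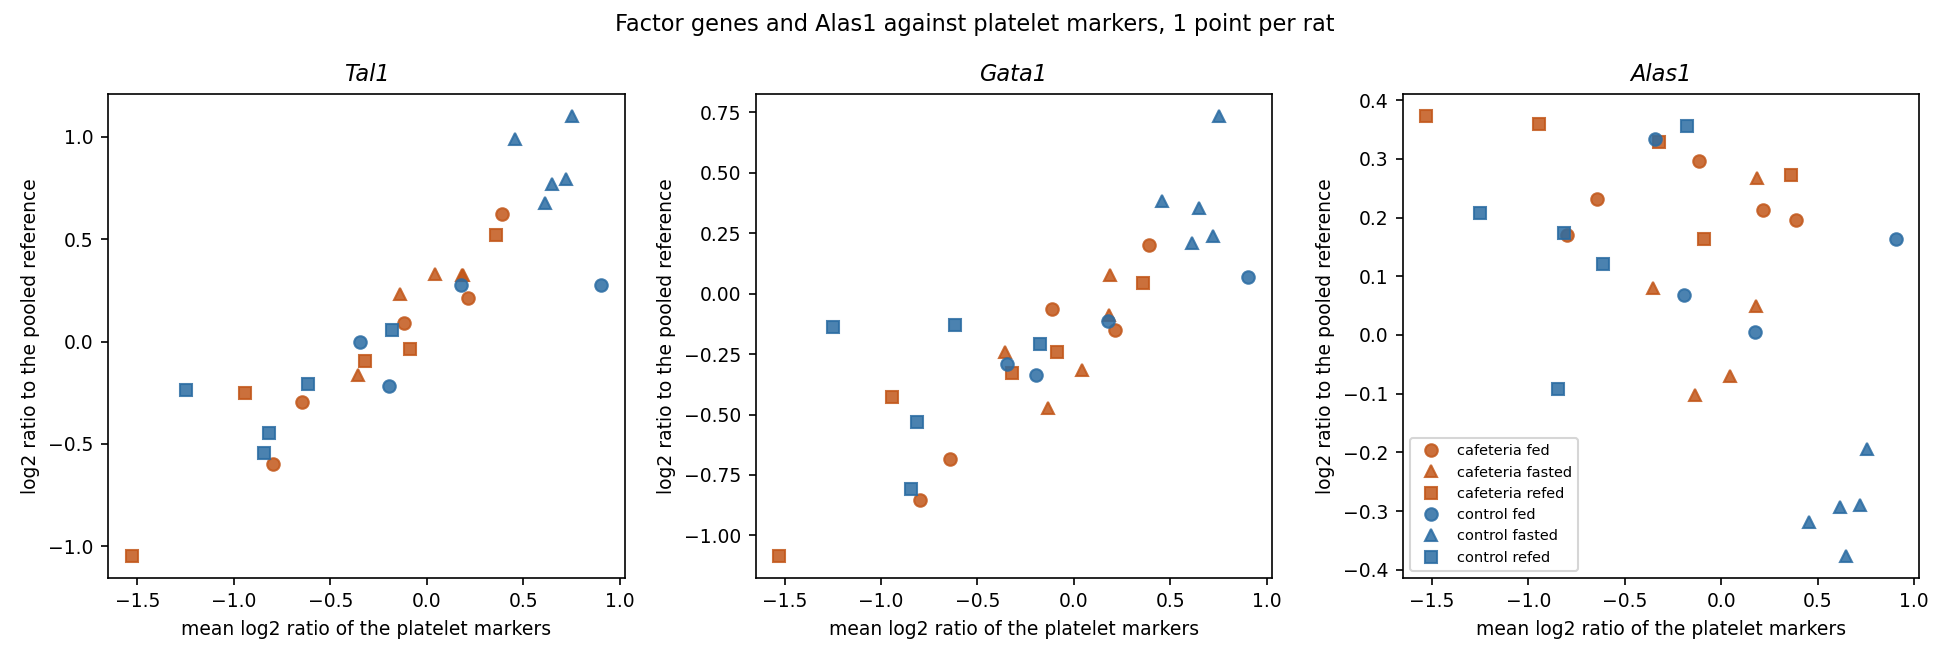
Log2 ratio of Tal1, Gata1 and Alas1 (y axes) against the mean log2 ratio of 13 platelet markers (x axis) in the 29 rats. Colour gives the diet and the shape of the point gives the feeding state. Tal1 and Gata1 climb along the platelet markers with r of 0.91 and 0.83, and the control fasted rats sit at the upper right for both and at the bottom for Alas1.

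Each slide that held both groups gave the same sign for refeeding in control rats (3 of 3 slides for Tal1, Gata1, Epor and Ermap), and over both diets, so that diet is mixed in, the sign held on 7 of 7 slides for Tal1, Epor and Rhag and on 6 of 7 for Gata1. Within runs 1 and 2 the change in control rats was -1.31 and -0.88 for Tal1, -0.42 and -0.15 for Epor, and -0.90 and -0.50 for Gata1. The values of run 2 rest on 1 control fasted rat. A second Tal1 probe, correlated at 0.81 with the one used, gave -0.22 (adjusted p = 0.116). A second Rhag probe, correlated at 0.90, gave -0.62 averaged over diets (adjusted p = 0.114). The call of Rhag was lost without control refed rat 9 or cafeteria refed rat 3 (adjusted p up to 0.0524), and that of Ermap when 1 of 12 rats was left out (up to 0.153). Those 12 were control fed rat 4, control fasted rats 2, 8 and 11, control refed rats 3, 6, 9 and 12, cafeteria fed rat 4, cafeteria fasted rats 8 and 14 and cafeteria refed rat 12.

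The membrane proteins divided between these patterns. Slc4a1, the anion exchanger known as band 3, averaged -0.58 ± 0.44, -0.27 ± 0.67 and 0.30 ± 0.87 in cafeteria fed, fasted and refed rats, and -1.09 ± 0.20, -0.50 ± 1.04 and -0.53 ± 0.98 in control fed, fasted and refed rats. Epb42, which anchors band 3 to ankyrin, had group means between -0.45 and 0.46, Rhd between -0.82 and 0.60, Kel, the Kell blood group enzyme, between -0.17 and 0.27, and the water channel Aqp1 between -0.63 and 0.48. In the skeleton beneath the membrane, group means of Sptb lay between -0.34 and 0.11. Those of Ank1, the ankyrin that links spectrin to band 3, lay between -0.05 and 0.04. The Ank1 probe was well above background on only 9 arrays, so this narrow range cannot be read as low variation. Epb41, also of this skeleton, was lower in cafeteria rats, as given above. Among the enzymes and factors, Bpgm, which makes the 2,3-bisphosphoglycerate that loosens oxygen from haemoglobin, had group means between -0.58 and 0.36, Klf1 between -0.32 and 0.41 and Gfi1b between -0.16 and -0.03.

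No member passed limma's test between refed and fed rats, in cafeteria or in control rats, against 0% of all genes in both, with 6 members in cafeteria rats and 1 in control rats at an unadjusted p under 0.05. The smallest p-values belonged to Tfrc (0.41), Klf1 (0.51) and Rhd (0.89) in cafeteria rats, and to Rhag (-1.66), Tal1 (-0.36) and Slc25a38 (0.11) in control rats. On fasting in cafeteria rats no member passed, against 0.849% of all genes, with 2 at an unadjusted p under 0.05, and Tfrc (0.25), Alas1 and Uros (-0.12) came nearest. No member passed the tests of whether the diets differed in their response to fasting or to refeeding, against 0% of all genes in both, with 2 and 6 members at an unadjusted p under 0.05. Epor (-0.31), Alas1 and Tal1 (-0.58) had the smallest p-values for fasting, and Slc25a38 (-0.26), Epor (0.26) and Tal1 (0.75) for refeeding. Over all 6 groups the F test called 6 of 31 members, against 9.85% of all genes. These were Alas1 (adjusted p = 0.000266), Epor (0.00649), Tal1 (0.0065), Tfrc (0.0289), Gata1 (0.0377) and Ahsp (0.0455), with the numbers in brackets being adjusted p-values. The call of Ahsp was lost when 1 of 21 rats was left out (adjusted p up to 0.123), and it was kept without cafeteria fed rat 7, cafeteria fasted rat 8, cafeteria refed rat 3, control fasted rat 5, 8 or 11, or control refed rat 12 or 15. The call of Gata1 was lost without any 1 control fasted rat, control refed rat 9, cafeteria fasted rat 11 or cafeteria refed rat 6 or 9 (adjusted p up to 0.143).

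Some genes of the red cell outside the set followed one or the other pattern, and most followed neither. Of 63 genes on 5 further lists, 16 had r over 0.5 with Ahsp and 11 with the platelet marker mean, and 36 had it with neither. Slc2a1, a glucose transporter, ran against Ahsp (r = -0.51, rho = -0.50, adjusted p = 0.0217). Of these lists, Hemgn (r = 0.93, rho = 0.92), the beta-globin Hbb-b1 (r = 0.91, rho = 0.91), Hbq1 (r = 0.88, rho = 0.89), the actin cap Tmod1 (r = 0.86, rho = 0.84) and Bnip3l (r = 0.85, rho = 0.87), which clears mitochondria from reticulocytes, were the most correlated with Ahsp. Stom (r = 0.96, rho = 0.96), Nfe2 (r = 0.96, rho = 0.96), Slc40a1 (r = 0.93, rho = 0.95) and Abcb6 (r = 0.91, rho = 0.94) were the most correlated with the platelet marker mean. The permutation p was 1e-05, the smallest possible, for each of these 9, and the adjusted p was 6.63e-05 over 126 relations. Of 17 further haem and iron genes, 6 were called in control refed against control fasted rats, 1 higher and 5 lower, where 9.31% of all genes were called. The changes were -0.67 for Abcb6, a porphyrin transporter (adjusted p = 0.00119), -1.72 for the ferritin heavy chain Fth1 (adjusted p = 0.00268), -1.49 for the iron exporter Slc40a1 (adjusted p = 0.00296) and -0.57 for the iron-sulphur scaffold Iscu (adjusted p = 0.0148). Of 11 further factors 3 were called, with changes of -1.60 for Nfe2, which acts in megakaryocytes and erythroid cells (adjusted p = 0.00287), 0.61 for Nfe2l2 (adjusted p = 0.00362) and 0.22 for Sox6 (adjusted p = 0.038). Of 14 membrane genes, 1 was called, Stom, which fell by 1.29 (adjusted p = 0.00344), and of 16 genes of late red cells 2 were called, Ubb (-0.37) and Ube2o (-0.58). With 1 of 14 and 2 of 16 called, the shares of the membrane and late red cell genes were close to the 9.31% of all genes.

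By diet, averaged over feeding states, catalase, Cat, rose by 0.23 ± 0.05 in cafeteria rats (SE, adjusted p = 0.0145). The urea transporter Slc14a1 fell by 0.19 (adjusted p = 0.00347) and Xk fell by 0.20 (adjusted p = 0.0393). The genes called by diet were 3 of 14 membrane genes, 1 of them higher and 2 lower, 1 of 17 haem and iron genes (Hmox1), 1 of 16 late red cell genes (Cat), 0 of 11 factors and 0 of 5 globins, against 3.24% of all genes. On fasting averaged over diets, Hmox1, Nfe2l2 and Isg20 (0.26, adjusted p = 0.0406) were the genes called on these lists. No further globin was called in any comparison, and the one with the smallest p over the 6 groups was Hbe2 (adjusted p = 0.283).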

How the data were processed

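RNA of blood mononuclear cells of 29 rats was measured on Agilent 2-colour whole-genome arrays, 1 rat per array, with the rat in Cy5, a pool of all groups in Cy3 and no dye swap. The authors' scanner output gives, per the file headers, a mean intensity per spot and a local background median in both colours. It came from Feature Extraction 9.5.1.1, and the headers place probes on rn4. The authors also deposited a value table, which the labels call normalised Cy5 signal and which is on a log2 scale (slope 0.985 to 1.02 against log2 scanner intensity, column medians 9.37 to 9.76). How that table was normalised between arrays is not given in the sources used here, and it served as an alternative.

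Computations used limma 3.58.1 in R 4.3.3, with data.table in version 1.17.8. Here normexp (offset 50) corrected the background and loess normalised each array's log2 Cy5/Cy3 ratios. Control and outlier spots had weight 0, 526 outlier values were left out, and a probe's repeated spots were averaged. The filter on signal kept 28242 of 41012 probes (marked well above background in Cy5 on 4 or more arrays), and the brightest probe of each gene gave 24275 genes. For 1 value of Fech (control fed rat 13) the spot was left out. One linear model over the 6 groups gave 14 contrasts and an F test, with Benjamini-Hochberg adjustment over all 24275 genes and a threshold of 0.05, and any p called adjusted is of this kind unless a permutation is named. Gene names came from the array and a GRCr8 gene table, which named 19558 of 41012 probes, and 145 names were set aside because they conflicted with the probe's chromosome.

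The calls were tested on simulated data for control refed against control fasted rats over 24275 genes. Of 50 genes each changed by 0.3, 0.6, 1 and 1.5 on the log2 scale, 46%, 86%, 96% and 100% were called, with 11 unchanged genes called. The changed genes were drawn at random from all genes. Values were drawn independently between genes, with each gene's own mean and within-group SD and no effect of slide or run. Genes that vary together, as those of the Ahsp block do, were thus not simulated. Correlations used permutation tests with 100000 permutations. Alternatives were the processed signals, median centring, Cy5 alone, the authors' table, other probe filters, every probe on its own, slide, run of the extraction software or replicate number in the model, the platelet marker mean as a covariate, and leaving out each rat. Analyses within each such run were added after seeing the data. Named genes were the members called in a comparison or, where none was, the 3 with the smallest p, and from further lists up to 4 genes called. The members and lists were chosen with earlier results of these data known. Some genes of the further lists are not reported here. Plots were drawn with matplotlib 3.10.9.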

Additional observations from a re-analysis of the deposited data

Results flagged for a closer look

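In 10 of 185 groups of 4 or 5 rats, 1 rat stood apart from the others of its group by Dixon's test, where chance gives about 1 in 20. Cafeteria fasted rat 5 did so for 3 genes: Rhag at -1.02 against 0.83 to 1.41 in the other 4 rats, Tal1 at -0.16 against 0.23 to 0.33, and Urod at 0.023 against -0.11 to -0.08. Cafeteria fed rat 7 was low for Ca2 at -0.52, against -0.19 to -0.08. Control refed rat 9 was low for Ermap at -0.28, against -0.04 to -0.01, and high for Uros at 0.07, against -0.03 to -0.00. Control fed rat 1 was low for Gfi1b at -0.30, against -0.13 to -0.09, and control fasted rat 2 was high for Ppox at 0.082, against -0.22 to -0.19. Cafeteria refed rat 9 was high for Slc25a37 at 0.21, against -0.12 to -0.04, and cafeteria refed rat 6 for Uros at 0.25, against -0.13 to -0.04.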

How the results depend on the processing

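Over all settings run, 1747 values kept their direction and side of the threshold, 139 were no longer past it, 3 newly were, and 4 changed sign. The causes were not tested, apart from the fewer rats within a run. With median centring and no loess, members called were 0 in control fasted against control fed rats (1 with loess), 0 on fasting averaged over diets (1), 3 in control refed against control fasted rats (5), 3 on refeeding averaged over diets (5), 0 in cafeteria fasted against control fasted rats (1), 0 by diet averaged over feeding states (3) and 1 over the 6 groups (6). Over all genes this setting called 808 in control refed against control fasted rats, against 2259 with loess, and 54 by diet, against 786. Cy5 alone called 0 in control fasted against control fed and 0 in cafeteria fasted against control fasted rats, and the authors' table called 0, 0 and, by diet, 5. That table moved the median of all genes by 0.15 in control refed against control fasted rats. With the mean of the platelet markers in the model 0 members were called in control fasted against control fed rats, 0 in control refed against control fasted rats, 1 on refeeding averaged over diets, 8 by diet and 2 over the 6 groups, and 4 of all genes were called in control refed against control fasted rats. In cafeteria fasted against control fasted rats the processed signals and the run of the extraction software as a term called 0, and every probe on its own and slide as a block called 2.

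Within run 1, 0 members were called in control fasted against control fed rats, 0 on fasting averaged over diets, 2 in control refed against control fasted rats, 1 on refeeding averaged over diets, 0 in cafeteria fasted against control fasted rats, 0 by diet and 2 over the 6 groups. Within run 2 these counts were 0, 0, 0, 1, 0, 0 and 0. Run 1 held 1 cafeteria refed and 1 cafeteria fasted rat, and run 2 held 1 control fasted and 1 cafeteria fed rat. Within run 1 the sign turned for Urod in cafeteria refed against cafeteria fasted rats (-0.17). It also turned there for Rhd in cafeteria refed against cafeteria fed rats (-0.26). With the platelet covariate the sign turned for Rhag on refeeding averaged over diets (0.0077) and for Tal1 in control refed against control fed rats (0.20). Leaving out 1 rat at a time gave 0 to 1 in control fasted against control fed rats, 1 to 2 on fasting averaged over diets, 4 to 5 in control refed against control fasted rats, 0 to 1 in cafeteria refed against cafeteria fasted rats, 4 to 6 on refeeding averaged over diets, 0 to 2 in cafeteria fasted against control fasted rats, 3 to 5 by diet and 3 to 8 over the 6 groups.

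Replicate numbers are shared by the diets, but same-numbered rats did not deviate together, since 2 of 14 pairs had a correlation over 0.1 (range -0.15 to 0.21). With the replicate block 2 members were called in cafeteria fasted against control fasted rats, 1 in cafeteria refed against control refed rats (Ahsp, 1.47, adjusted p = 0.0357, with 0.0357 to 0.706 over the alternatives) and 5 by diet. The dim probes of Ank1 and Ermap limit what can be read from them.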
